A study of Mus musculus with 12 samples.

Results

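The 9 genes described here are markers of bile duct cells and of liver progenitors, namely Krt7, Krt19, Krt23, Epcam, Sox9, Sox4, Spp1, Cd24a and Prom1. They were picked by name from the 53715 genes of the count matrix and matched by symbol to their Ensembl identifiers. The list was drawn up with results of these libraries already known, so the members' values are given as a description. All 9 members passed the filter of more than 10 counts in at least 1 library, as did 17779 genes in all.

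The counts come from bulk RNA sequencing of 12 mouse libraries in 3 groups of 4 biological replicates, all from wild-type mice of the C57BL/6JOlaHsd strain. The Hepatoblasts are cells of embryonic livers at E14.5, enriched with magnetic beads for the surface protein Dlk1 and lysed at once, each isolation pooling the livers of several embryos. The Diff. hepatocytes began as the same kind of E14.5 Dlk1+ cells and were grown for 4 days on a fibronectin coat in a differentiation medium that held dexamethasone and dilute Matrigel. The Mature hepatocytes were freshly isolated by collagenase perfusion from the livers of adult male mice aged 8 to 12 weeks. Culture, age, isolation method and sex differ together between the groups, so their parts in a difference cannot be told apart. The Dlk1+ fraction of the fetal liver holds some Sox9-positive duct cells beside the hepatoblasts, according to the study's methods.

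Hepatoblasts are the common precursors of hepatocytes and of cholangiocytes, the cells that line the bile ducts. Around the portal vein, Notch, TGF-beta and Hippo-YAP signals turn some of them towards the duct fate, and duct cells then keep a set of keratins, adhesion proteins and transcription factors that hepatocytes lack. Several of these genes are also switched on in the injured adult liver, where duct-like cells multiply.

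The libraries held 19581551 to 25216977 counts on genes. A level is given below as CPM, the counts relative to the library total after edgeR's TMM scaling between libraries, and a comparison between genes as FPKM, which also divides by exon length. A fold change is edgeR's estimate and its error is the standard error (SE) on the log2 scale. A gene was called when the adjusted p of the quasi-likelihood test was below 0.01 and the absolute log2 fold change above 1. Fewer cells of a type and less RNA per cell cannot be told apart in such libraries. The labels were checked on marker lists. The summed level of 6 hepatoblast and fetal liver genes, among them Dlk1 and Afp, lay at 41800 to 70100 CPM for Hepatoblasts, 37800 to 44200 CPM for Diff. hepatocytes, which overlapped them, and 65.9 to 109 CPM for Mature hepatocytes. In Diff. hepatocytes against Hepatoblasts 5 of the 6 genes were called lower and none higher, where 14% of all tested genes were called lower. Mean Dlk1 fell from 3523 to 94.2 CPM and Afp from 39340 to 18610 CPM, while H19 went from 14920 to 22230 CPM. A set of 6 hepatocyte genes, among them Alb and Hnf4a, summed to 33100 to 56000, 52900 to 61200 and 107000 to 151000 CPM in Hepatoblasts, Diff. and Mature hepatocytes. The ranges of Hepatoblasts and Diff. hepatocytes overlapped. Between these groups 2 of the 6 genes were called higher in culture and 0 lower, where 14.9% of all tested genes were called higher. Mean levels went from 37760 to 40230 CPM for Alb, 409 to 619 for Hnf4a, 4544 to 9392 for Apoa1 and 22 to 5920 for Cps1. They went from 1955 to 1059 CPM for Ttr and 150 to 113 for Cebpa.

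Markers of other cells differed between libraries of a group. In Hepatoblasts replicate 1 all 8 erythroid genes (median log2 difference of 2.83 from the other 3 libraries), all 9 macrophage genes (1.78) and all 7 endothelial genes (1.58) were higher. In Diff. hepatocytes replicate 1 all 9 macrophage genes (1.79), 7 of 8 mesenchymal genes (0.849), all 6 mesothelial genes (0.553) and all 6 cell cycle genes (1.16) were higher. Among the Mature hepatocytes all 9 macrophage and all 7 endothelial genes were higher both in replicate 3 (0.687 and 0.633) and in replicate 1 (0.456 and 0.517), and all 8 mesenchymal genes (0.672) were higher in replicate 3 as well. Values of the members and of the named genes that moved by over 1.5 times on the linear scale when 1 library was left out are also given without that library. The part of these other cell types in the results was not tested.

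Upstream sequences are shown for 4 members, 3 of which (Krt23, Epcam and Sox4) stood higher in Diff. hepatocytes than in both other groups and 1 of which (Spp1) did not. They are the 250 bases before the RefSeq start on build GRCm38.p6, read 5′ to 3′ on the gene's strand. 6 of the 9 members had an entry in the RefSeq table used; Krt19, Sox9 and Cd24a had none. Capitals mark exact matches, on either strand, to CATTCC (TEAD), TGGGAA (RBPJ, the Notch effector), ACAATG (SOX) or TATAAA (the core box that bears its name). The region of Krt23 is chr11:99493121-99493370 on the minus strand, that of Epcam is chr17:87635729-87635978 on the plus strand, that of Sox4 is chr13:28953700-28953949 on the minus strand and that of Spp1 is chr5:104434861-104435110 on the plus strand.
Krt23: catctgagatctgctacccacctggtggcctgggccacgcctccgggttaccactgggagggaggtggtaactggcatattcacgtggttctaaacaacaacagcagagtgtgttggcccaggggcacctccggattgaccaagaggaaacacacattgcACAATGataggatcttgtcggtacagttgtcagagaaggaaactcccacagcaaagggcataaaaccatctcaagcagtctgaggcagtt
Epcam: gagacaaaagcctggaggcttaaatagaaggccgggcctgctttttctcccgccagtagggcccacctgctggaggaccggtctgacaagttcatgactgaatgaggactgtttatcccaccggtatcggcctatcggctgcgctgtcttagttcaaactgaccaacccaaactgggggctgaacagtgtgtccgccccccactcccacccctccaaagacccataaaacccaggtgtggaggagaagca
Sox4: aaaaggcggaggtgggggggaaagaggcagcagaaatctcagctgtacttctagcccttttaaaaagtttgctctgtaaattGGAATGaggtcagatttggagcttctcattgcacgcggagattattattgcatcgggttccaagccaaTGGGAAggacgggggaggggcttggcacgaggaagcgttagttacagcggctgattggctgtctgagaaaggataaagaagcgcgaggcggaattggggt
Spp1: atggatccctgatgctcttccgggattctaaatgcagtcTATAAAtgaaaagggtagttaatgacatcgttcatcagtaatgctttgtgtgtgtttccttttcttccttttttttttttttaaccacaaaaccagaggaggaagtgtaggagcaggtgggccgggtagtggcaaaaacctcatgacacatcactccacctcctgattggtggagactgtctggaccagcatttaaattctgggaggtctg

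The window of Krt23 held 1 SOX match, 90 bases before the start. That of Sox4 held a TEAD match on the antisense strand (168 bases before the start) and an RBPJ match (100 bases). That of Spp1 held a core box match (211 bases), and that of Epcam held none of the 4 motifs. Spp1 had another start in the RefSeq table, whose window (chr5:104435942-104436191) is not shown and held none of the 4 motifs. Among all 32851 promoters of the table, 12.6% held the TEAD letters, 21.6% the RBPJ letters, 10.7% the SOX letters and 12.4% those of the core box. A match is a description of these letters only. By GENCODE the last 17 bases shown for Krt23 and the last 14 for Sox4 lie in the annotated first exon, and the windows of Epcam and Spp1 hold no exonic base of their gene. The GC content of the 4 windows was 52.8% for Krt23, 56.4% for Epcam, 50.8% for Sox4 and 43.6% for Spp1.

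**Figure D1:**
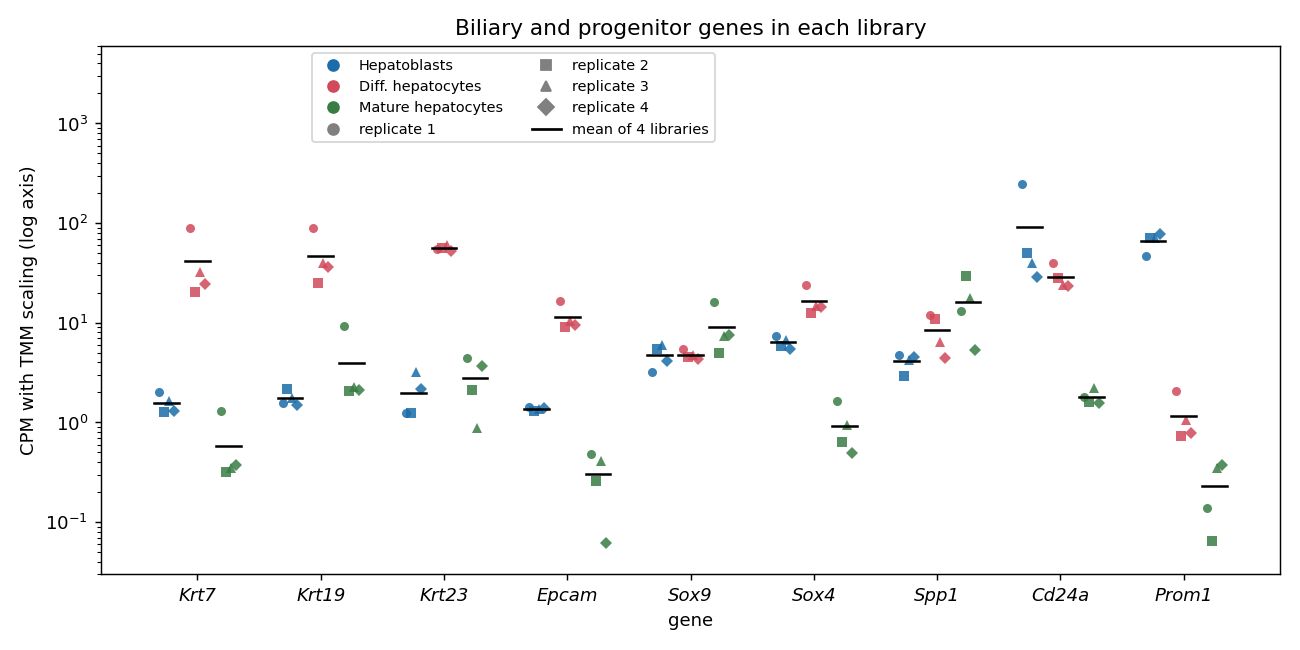
CPM of the 9 members in each of the 12 libraries on a log axis, with colours for the groups, shapes for the replicate numbers and black bars for the mean of 4 libraries. Krt7, Krt19, Krt23, Epcam and Sox4 are highest in all 4 Diff. hepatocytes libraries, Prom1 is highest in all 4 Hepatoblasts libraries, and Cd24a reaches 246 CPM in Hepatoblasts replicate 1.

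The 3 keratins were the members that stood furthest above Hepatoblasts in culture. Keratins form the intermediate filaments of epithelial cells, and Krt7 and Krt19 are the classical pair that tells duct cells from hepatocytes, which use Krt8 and Krt18. Krt7 (ENSMUSG00000023039, chromosome 15, 101411043 to 101430313, GRCm38) was at 2.03, 1.28, 1.65 and 1.29 CPM in Hepatoblasts replicates 1 to 4. In Diff. hepatocytes Krt7 was at 90.2, 20.6, 32.4 and 24.5 CPM, and in Mature hepatocytes at 1.30, 0.321, 0.350 and 0.373 CPM. Every Diff. hepatocytes library lay above every library of both other groups. The mean in Diff. hepatocytes was 41.9 ± 32.6 CPM (SD, n = 4), 26.7-fold that in Hepatoblasts (log2 fold change 4.74, SE 0.494) and 72.6-fold that in Mature hepatocytes (6.18, SE 0.586). Replicate 1 set much of the size of both values for Krt7. Without Diff. hepatocytes replicate 1 the log2 difference from Hepatoblasts was 4.04, which is 1.62 times smaller on the linear scale, and without Mature hepatocytes replicate 1 the log2 difference of Diff. from Mature hepatocytes was 6.89. With 1 library left out, the lowest value of the latter difference was 5.48. Between Mature hepatocytes and Hepatoblasts the ranges of Krt7 overlapped, with a log2 fold change of -1.44 (SE 0.642) that became -2.16 without Mature hepatocytes replicate 1. The gene was not called there, but it was with library totals (-2.30), with totals without the 50 most abundant genes (-2.11), with the replicate number as a block (-1.57), without Diff. hepatocytes replicate 1 (-1.44) and without replicate 1 of all groups (-1.996).

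Krt19 (ENSMUSG00000020911, chromosome 11, 100140810 to 100148665), the smallest of the keratins and a marker of ducts from their first appearance, followed a similar course. It was at 1.58, 2.18, 1.75 and 1.49 CPM in Hepatoblasts, at 88.9, 24.8, 39.5 and 35.9 CPM in Diff. hepatocytes and at 9.33, 2.05, 2.28 and 2.11 CPM in Mature hepatocytes. The cultured libraries lay above all others, and replicate 1 was the highest both in culture and in the adult cells. Diff. hepatocytes averaged 26.9-fold the level of Hepatoblasts (log2 fold change 4.75, SE 0.532) and 12.1-fold that of Mature hepatocytes (3.60, SE 0.51). The difference between Mature hepatocytes and Hepatoblasts, 1.15 on the log2 scale (SE 0.535), rested on Mature hepatocytes replicate 1 and was 0.28 without it. Without that library the log2 difference of Diff. from Mature hepatocytes was 4.45.

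Krt23 (ENSMUSG00000006777, chromosome 11, 99477974 to 99493137), an acidic keratin of the gut and of reactive ducts, was the steadiest of the 3 in culture. It was at 1.26, 1.25, 3.24 and 2.19 CPM in Hepatoblasts, at 54.9, 56.7, 59.9 and 52.0 CPM in Diff. hepatocytes and at 4.46, 2.12, 0.875 and 3.66 CPM in Mature hepatocytes. The 4 cultured libraries averaged 55.9 ± 3.32 CPM (SD, n = 4), and replicate 1 was not raised. Diff. hepatocytes averaged 28.2-fold the level of Hepatoblasts (log2 fold change 4.82, SE 0.38) and 20.3-fold that of Mature hepatocytes (4.34, SE 0.382). Hepatoblasts and Mature hepatocytes overlapped in Krt23, and their log2 difference of 0.47 (SE 0.396) turned to -0.38 with library totals in place of TMM scaling. Per exon length, Krt23 made up 56.1% of the summed FPKM of the 3 keratins in Diff. hepatocytes (36.6% to 69% between libraries), Krt19 35.8% (25.5% to 50%) and Krt7 8.07% (5.56% to 13.4%). The shares in Hepatoblasts were 50.2%, 40.3% and 9.54%, so that the 3 keratins stood in much the same proportion at the low level before culture, with library ranges that overlapped for each.

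Epcam (ENSMUSG00000045394, chromosome 17, 87635979 to 87651129) encodes an adhesion protein of epithelial cells that is kept on duct cells and lost from hepatocytes. It was at 1.42, 1.31, 1.36 and 1.39 CPM in Hepatoblasts, the narrowest spread of any member relative to its mean. In Diff. hepatocytes Epcam was at 16.5, 9.13, 10.5 and 9.57 CPM, and in Mature hepatocytes at 0.480, 0.257, 0.409 and 0.0621 CPM. The 3 groups did not overlap, and the adult libraries held between 1 and 7 counts of the gene. The mean of 11.4 ± 3.42 CPM in culture was 8.31-fold that in Hepatoblasts (log2 fold change 3.05, SE 0.286) and 37.4-fold that in Mature hepatocytes (5.22, SE 0.358). Mature hepatocytes lay below Hepatoblasts by a log2 difference of -2.17 (SE 0.371). The bases before its start, printed above, held none of the motifs searched.

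Prom1 took the opposite course in culture. Prom1 (ENSMUSG00000029086, chromosome 5, 43993620 to 44102032), a membrane protein of cell protrusions that is used to sort liver progenitors, was at 46.3, 71.1, 71.6 and 77.2 CPM in Hepatoblasts. It was at 2.08, 0.732, 1.07 and 0.789 CPM in Diff. hepatocytes and at 0.137, 0.0642, 0.350 and 0.373 CPM in Mature hepatocytes. No group overlapped another, and Diff. hepatocytes lay 56.5-fold below Hepatoblasts (log2 fold change -5.82, SE 0.308). The adult libraries held 1 to 6 counts of Prom1, for a log2 difference of -8.11 (SE 0.389) from Hepatoblasts, and Diff. hepatocytes remained above them by 2.29 (SE 0.509). The fall in culture was larger, -6.26, without Diff. hepatocytes replicate 1. Prom1 overlaps the antisense gene Gm16401, which had 15 to 23 counts in Hepatoblasts libraries, where Prom1 had 1435 to 2380.

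Cd24a (ENSMUSG00000047139, chromosome 10, 43578284 to 43584265) encodes a small glycosylated surface protein of progenitors and duct cells that blood cell precursors carry as well. It was at 246, 49.9, 39.6 and 28.7 CPM in Hepatoblasts, at 39.4, 28.2, 23.9 and 23.6 CPM in Diff. hepatocytes and at 1.78, 1.60, 2.22 and 1.55 CPM in Mature hepatocytes. Hepatoblasts replicate 1 had 6.25 times the mean of the other 3 libraries of its group, and the remaining Hepatoblasts overlapped Diff. hepatocytes. The log2 fold change of Diff. hepatocytes against Hepatoblasts, -1.66 (SE 0.543), was -0.44 without that library. It was not called, but it was without Hepatoblasts replicate 3 (-1.93) or 4 (-1.98), with library totals (-2.06) and with a filter of at least 1 count in any library (-1.69). The summed erythroid list in the same library was 1230 CPM, against a group median of 212 CPM, and the granulocyte and megakaryocyte list 330 CPM against 42.9 CPM; their part in the Cd24a level was not tested. Mature hepatocytes lay below both other groups with no overlap, 50.6-fold below Hepatoblasts (log2 fold change -5.66, SE 0.707, and -4.46 without Hepatoblasts replicate 1) and 16-fold below Diff. hepatocytes (SE of the log2 difference 0.688).

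Spp1 (ENSMUSG00000029304, chromosome 5, 104435118 to 104441050) encodes osteopontin, a secreted matrix protein made by duct cells and by macrophages. It was at 4.74, 2.90, 4.27 and 4.57 CPM in Hepatoblasts, at 11.9, 10.9, 6.35 and 4.39 CPM in Diff. hepatocytes and at 13.2, 29.3, 17.6 and 5.28 CPM in Mature hepatocytes. All adult libraries lay above all Hepatoblasts libraries, while Diff. hepatocytes overlapped both groups. The log2 fold change of Mature hepatocytes against Hepatoblasts was 1.99 (SE 0.435), and the gene was not called there with library totals (1.17), with totals without the 50 most abundant genes (1.34) or with the fold threshold inside the test. Diff. hepatocytes differed from Hepatoblasts by 1.03 (SE 0.43) and from Mature hepatocytes by -0.96 (SE 0.422), neither of them called; without Mature hepatocytes replicate 4 the latter was -1.25 and called. The summed macrophage list ranged over 81.1 to 345, 24.2 to 151 and 133 to 255 CPM in Hepatoblasts, Diff. and Mature hepatocytes, and its part in the Spp1 level was not tested.

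Sox9 and Sox4 are transcription factors that act together in the forming duct, where Sox9 is the earliest marker of the duct fate. Sox9 (ENSMUSG00000000567, chromosome 11, 112782224 to 112787760) was at 3.23, 5.52, 6.02 and 4.14 CPM in Hepatoblasts, at 5.45, 4.56, 4.75 and 4.29 CPM in Diff. hepatocytes and at 16.3, 4.94, 7.41 and 7.57 CPM in Mature hepatocytes. The range in culture lay inside that of Hepatoblasts. On the log2 scale they differed by 0.01 (SE 0.312), and its sign changed with the scaling, the low-count filter and the libraries kept (-0.3 with library totals). Mature hepatocytes were higher by 0.93 (SE 0.311) than Hepatoblasts, with overlapping ranges, and by 0.48 without Mature hepatocytes replicate 1; this difference was not called, except without Mature hepatocytes replicate 2 (1.13). Diff. hepatocytes differed from Mature hepatocytes by -0.92 (SE 0.314), not called except without the same library (-1.13). Sox9 was thus the one member whose mean in culture stayed within 0.1 on the log2 scale of that in Hepatoblasts.

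Sox4 (ENSMUSG00000076431, chromosome 13, 28948919 to 28953713), a single-exon gene, was at 7.42, 5.88, 6.77 and 5.44 CPM in Hepatoblasts. It was at 24.1, 12.5, 14.9 and 14.4 CPM in Diff. hepatocytes and at 1.65, 0.642, 0.934 and 0.497 CPM in Mature hepatocytes. The 3 groups did not overlap. Diff. hepatocytes lay 2.58-fold above Hepatoblasts (log2 fold change 1.37, SE 0.261, and 1.13 without Diff. hepatocytes replicate 1) and 17.8-fold above Mature hepatocytes (4.15, SE 0.321). Mature hepatocytes lay below Hepatoblasts by -2.78 (SE 0.317). Of the 75-base stretches of the Sox4 transcript, 53.84% also lie on the opposite strand in the antisense gene Gm26735, which was listed at 0 counts in every library; reads of the 2 genes could be told apart only by strand, and the strand setting of the counting is not given in the sources used here.

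**Figure D2:**
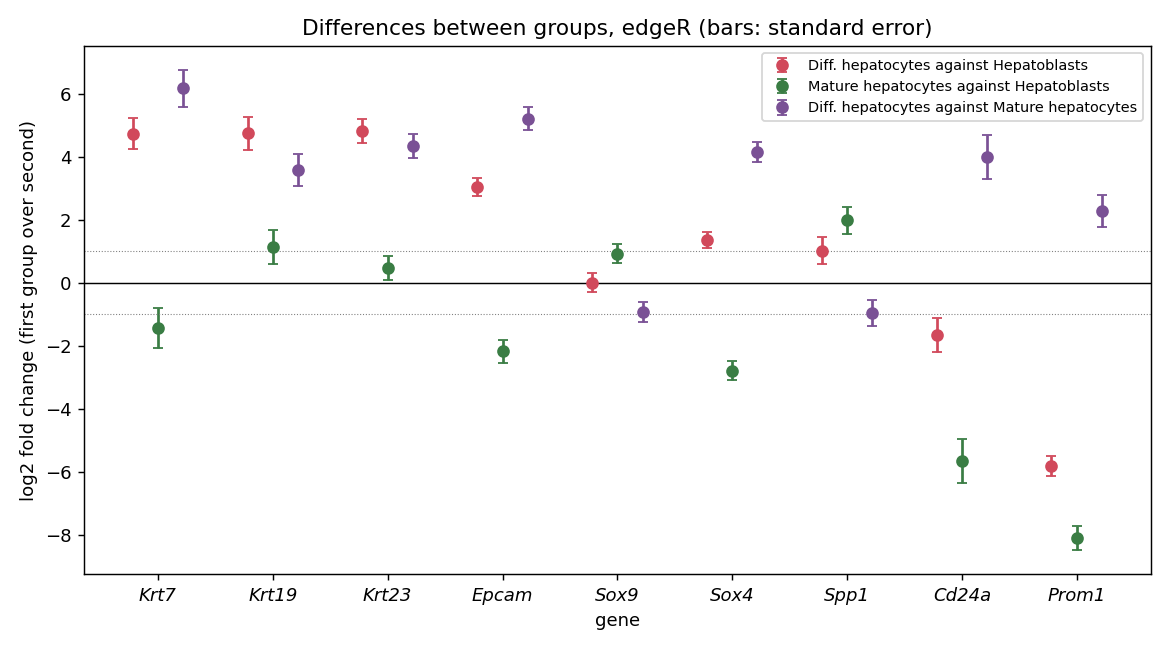
Log2 fold change of the 9 members in the 3 comparisons, the first group named over the second, with bars for the standard error and dotted lines at a log2 fold change of 1 and -1. The keratins lie between 4.74 and 4.82 for Diff. hepatocytes against Hepatoblasts, Sox9 lies at 0.01 and Prom1 at -5.82.

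In the comparison of Diff. hepatocytes with Hepatoblasts, 5 members were called higher (Krt7, Krt19, Krt23, Epcam and Sox4), 1 lower (Prom1) and 3 not at all (Sox9, Spp1 and Cd24a). Of all tested genes 28.9% were called there, 14.9% higher and 14% lower. The 2 groups did not overlap for 6 members, and did not overlap for 57.5% of all tested genes. The members' median log2 fold change was 1.37, beside -0.01 for all tested genes. In Mature hepatocytes against Hepatoblasts 1 member was called higher (Spp1) and 4 lower (Epcam, Sox4, Cd24a and Prom1), with 44.8% of all tested genes called, 20.1% higher and 24.7% lower, and the median was -1.44 beside -0.15. The groups did not overlap for 5 members and for 66% of all tested genes. In Diff. against Mature hepatocytes 7 members were called higher and none lower, with Sox9 and Spp1 not called; 35.8% of all tested genes were called, 20.2% higher and 15.6% lower, and the median was 4.00 beside 0.09. The groups did not overlap for 7 members and for 61.6% of all tested genes. The 3 comparisons share their groups, and nothing is read from these counts since the members were chosen with such results known. Relative to library totals, which moved the median of all tested genes by -0.322, -0.85 and 0.527 in the 3 comparisons, the called members kept their direction. With library totals 35.4%, 20.2% and 75.6% of the called genes were higher in the 3 comparisons, against 51.5%, 44.9% and 56.4% with TMM scaling.

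Per exon length the order of the members differed between the groups. In Hepatoblasts Cd24a led with 35.3 ± 40.2 FPKM (SD, n = 4), then Prom1 with 9.27 ± 1.92 and Spp1 with 2.5 ± 0.509 FPKM. Sox4, Krt23, Sox9 and Krt19 followed between 1.33 and 0.943 FPKM with ranges that overlapped from one to the next, then Epcam at 0.625 and Krt7 at 0.222 FPKM, each below the range of the gene before it. In Diff. hepatocytes Krt23 (35.7 ± 2.12 FPKM) and Krt19 (25.5 ± 15.3 FPKM) led with overlapping ranges. Cd24a, Krt7, Epcam, Spp1 and Sox4 came next, between 11.2 and 3.43 FPKM, each overlapping its neighbour, while Sox9 (1.15 FPKM) and Prom1 (0.162 FPKM) lay below all of them without overlap. In Mature hepatocytes Spp1 (9.91 ± 6.07 FPKM), Sox9 (2.19), Krt19 (2.12), Krt23 (1.78) and Cd24a (0.694) overlapped from one to the next, and Sox4, Epcam, Krt7 and Prom1 lay at 0.194 FPKM or less. Krt7 and Krt19, 2 of the 4 highest members in culture, were thus among the 3 lowest in Hepatoblasts.

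**Figure D3:**
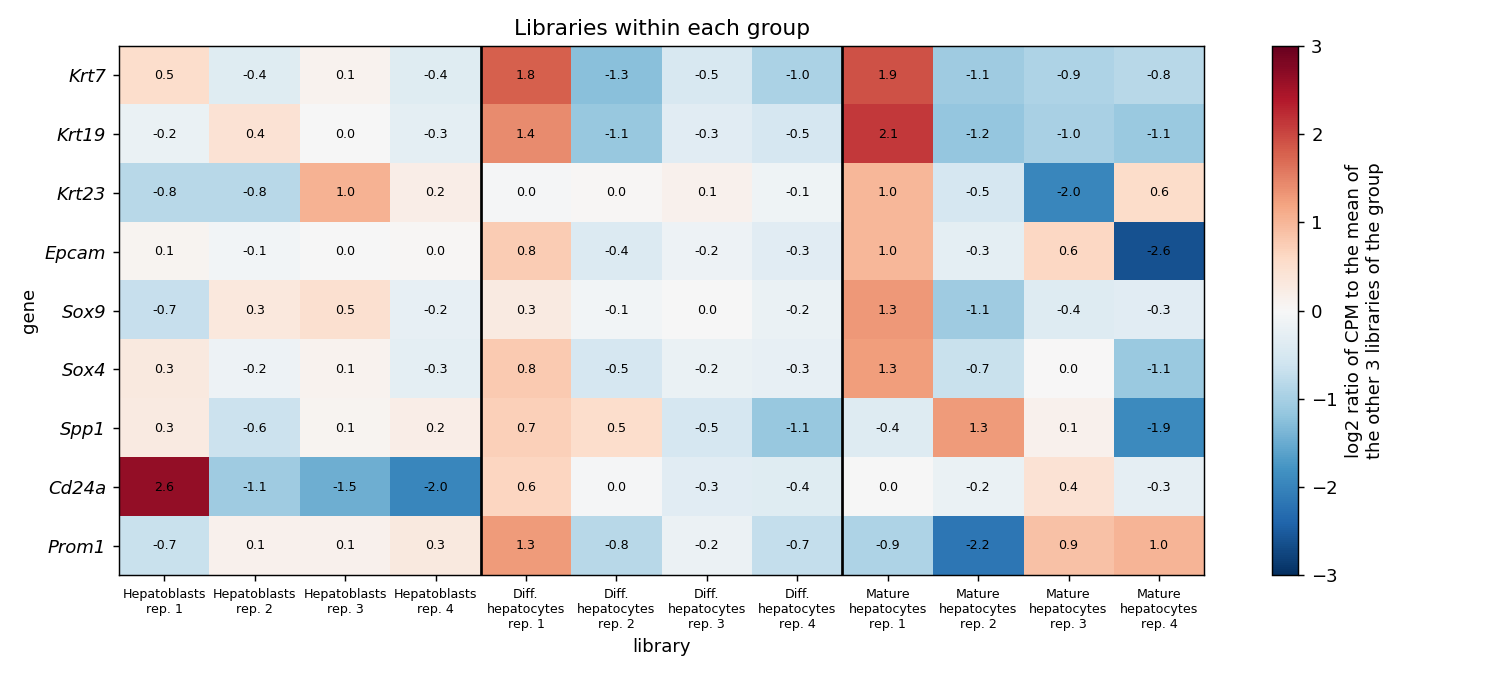
Log2 ratio of each library's CPM to the mean of the other 3 libraries of its group, for the 9 members (vertical) and the 12 libraries (horizontal). Diff. hepatocytes replicate 1 is the highest of its group for 8 of 9 members and Mature hepatocytes replicate 1 for 6 of 9, while Cd24a in Hepatoblasts replicate 1 stands at 6.25 times the mean of the others.

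Within the cultured group, replicate 1 had the highest level of 8 of the 9 members. Its ratio to the mean of the other 3 libraries was 3.49 for Krt7, 2.66 for Krt19, 2.41 for Prom1 and between 1.2 and 1.73 for Sox4, Epcam, Spp1, Cd24a and Sox9, but 0.976 for Krt23. Krt7 and Krt19 were raised in the library whose other-cell markers were raised, and Krt23 was not. Of the other biliary lists described below, 11 of 12 surface genes (median log2 difference 0.648) and 5 of 6 other keratins (0.723) were higher there. So were 5 of 9 regulators (0.157) and 3 of 9 transport genes (-0.151). Any link of these lists with the members was not tested. Mature hepatocytes replicate 1 was likewise the highest for 6 members, with ratios of 4.34 for Krt19, 3.75 for Krt7, 2.46 for Sox9, 2.38 for Sox4, 2.01 for Krt23 and 1.98 for Epcam, beside 0.762 for Spp1. With replicate 1 of all 3 groups left out, the log2 fold changes of Diff. hepatocytes against Hepatoblasts were 4.20 for Krt7, 4.20 for Krt19, 4.67 for Krt23, 2.84 for Epcam, 1.21 for Sox4 and -6.40 for Prom1, and the same 5 members were called higher and the same 1 lower.

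**Figure D4:**
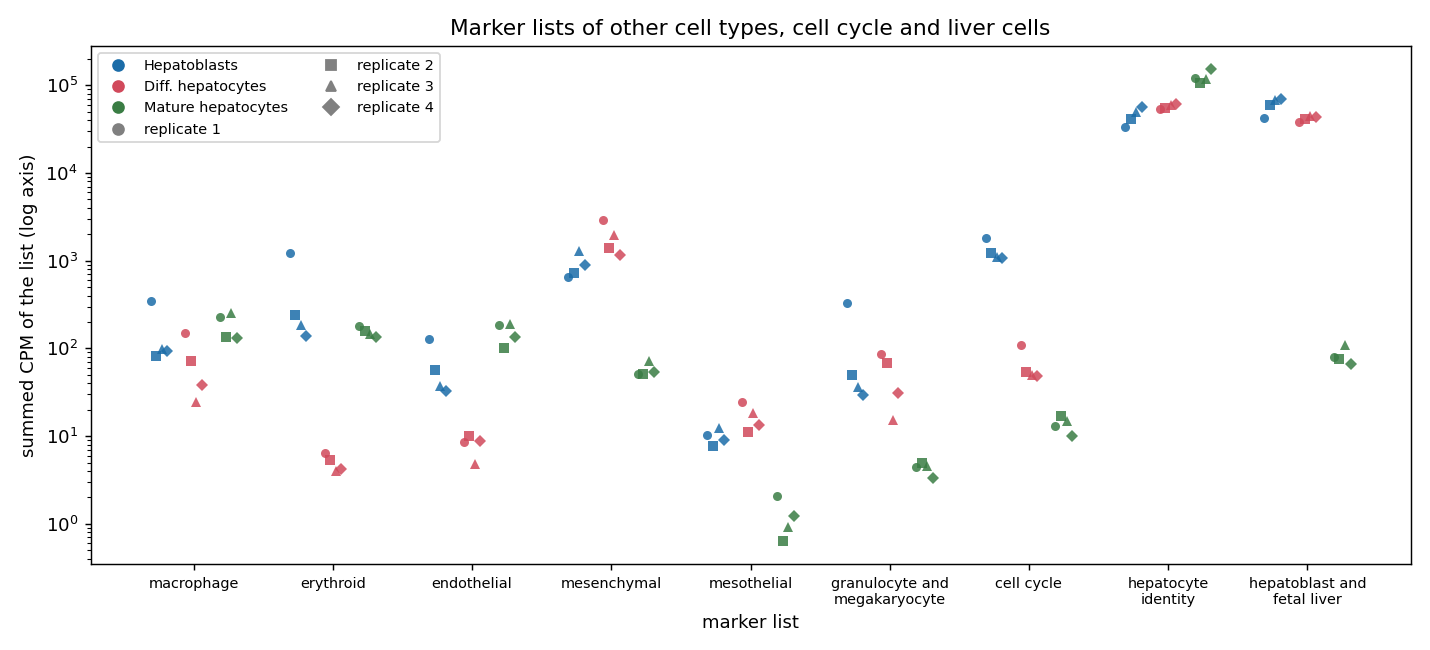
Summed CPM of marker lists in each library on a log axis, with colours for the groups and shapes for the replicate numbers. Hepatoblasts replicate 1 stands at 1230 CPM of the erythroid list and Diff. hepatocytes replicate 1 at 109 CPM of the cell cycle list, each above the other libraries of its group.

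Other cell types that carry the same keratins were looked for by their markers. Mesothelial cells, which cover the liver surface, express Krt7 and Krt19, and the summed level of 6 mesothelial genes was 7.67 to 12.5, 11.1 to 24.2 and 0.642 to 2.06 CPM in Hepatoblasts, Diff. and Mature hepatocytes. Of these 6 genes 2 were called higher in Diff. hepatocytes than in Hepatoblasts, 1 lower and 3 not. Mean levels went from 0.355 to 7.38 CPM for Msln, 0.681 to 2.08 for Upk1b and 1.87 to 3.07 for Gpm6a. They went from 3.59 to 1.39 CPM for Upk3b, 2.73 to 2.26 for Wt1 and 0.616 to 0.627 for Lrrn4. Upk1b and Lrrn4 had at most 3 counts in every adult library. The summed level of 8 mesenchymal genes was 660 to 1280, 1160 to 2900 and 50.5 to 72 CPM in the same order, with 3 of 8 called higher in culture and none lower. Macrophage genes had 1 called higher and 3 lower of 9 in Diff. hepatocytes against Hepatoblasts. All 8 erythroid genes and 5 of 7 endothelial genes were called lower in that comparison and none higher. Of all tested genes 14.9% were called higher there and 14% lower. The part of these cells in the members' levels was not tested.

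The question of whether the wider duct programme moved with the members was addressed with 41 other genes in 4 lists, of which 36 were tested and 5 (Grhl2, Cftr, Slc5a1, Sctr and Krt80) fell below the count filter. In Diff. hepatocytes against Hepatoblasts 11 rose, 8 fell and 17 were not called (median log2 fold change 0.25, all tested genes -0.01), where 14.9% of all tested genes were called higher and 14% lower. With library totals 8 rose and 8 fell, where 5606 of the 17779 tested genes were called, 35.4% of them higher. Each adjusted p below comes from the edgeR quasi-likelihood fit, adjusted by Benjamini-Hochberg over all tested genes. Of the 12 genes for surface proteins and progenitor markers 7 rose and 2 fell. Cldn4, a tight junction claudin of duct and other tubular epithelia, rose from a mean of 0.951 to 41.1 CPM (log2 fold change 5.42, SE 0.414, adjusted p = 1.43e-06). St14, the membrane protease matriptase, rose from 0.509 to 13.2 CPM (4.68, SE 0.357, adjusted p = 1.53e-07), and Cldn6, a claudin of embryonic epithelia, from 0.721 to 11.3 CPM (3.97, SE 0.446, adjusted p = 5.49e-06). Lgr5, a receptor in the Wnt pathway of progenitors and of hepatocytes near the central vein, fell from 17.5 to 0.132 CPM (-6.97, SE 0.468, adjusted p = 4.9e-08). Of the others that rose, Ncam1 and Itgb4 were not called without Diff. hepatocytes replicate 1 (0.94 and 0.90), nor Itgb4 without Hepatoblasts replicate 1 (0.97), and neither was called with library totals (0.80 and 0.73).

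The regulators of the duct fate did not share one direction. Of 9 tested, 1 rose, 3 fell and 5 were not called in Diff. hepatocytes against Hepatoblasts. Of all tested genes 14.9% were called higher there and 14% lower. Klf5, a zinc finger factor of duct and gut epithelium, rose from 1.69 to 12.8 CPM (log2 fold change 2.92, SE 0.357, adjusted p = 1.21e-05). Hes1, the direct Notch target, fell from 121 to 8.90 CPM (-3.77, SE 0.409, adjusted p = 4.04e-06), Elf3 from 19.4 to 3.89 CPM (-2.31, SE 0.252, adjusted p = 4.12e-06) and Onecut2 from 86.1 to 36.02 CPM (-1.26, SE 0.164, adjusted p = 2.16e-05). Among the named factors of the duct, then, Sox9 was not called in culture, Hes1 fell and Klf5 rose.

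Genes of bile modification gave 2 higher, 1 lower and 6 not called of 9 tested in the same comparison, beside 14.9% higher and 14% lower of all tested genes. Ggt1, a gamma-glutamyl transferase of the fetal liver and of ducts, rose from 22.4 to 287 CPM (log2 fold change 3.68, SE 0.174, adjusted p = 2.58e-09), and Aqp1, the water channel of duct cells and of endothelium, fell from 31.9 to 0.984 CPM (-5.02, SE 0.764, adjusted p = 8.27e-05). Hepatoblasts replicate 1 held 89.9 CPM of Aqp1 and the other 3 libraries 9.08 to 15.6 CPM, and without that library the log2 fold change was -3.68 (adjusted p = 2.89e-07), which is 2.54 times smaller on the linear scale. The endothelial list, whose cells also carry Aqp1, had a summed level of 32.5 to 127 CPM before culture and 4.8 to 10 CPM after it. The erythroid list had 140 to 1230 CPM before culture and 4 to 6.4 CPM after it. The part of either cell type in the Aqp1 level was not tested. The other gene that rose, Muc1, was below 1 CPM in both group means and lost its call without each Hepatoblasts library and without Diff. hepatocytes replicates 2 and 4 (log2 fold change 1.11 to 1.53), with the replicate block (1.404) and with library totals (1.10). The channel and the receptor that mark secreting ducts were near 0. Cftr averaged 0.0716 CPM in Hepatoblasts and had at most 1 count in any Diff. hepatocytes library and 2 in any Mature hepatocytes library, and Sctr, the secretin receptor, had at most 3 counts in every library.

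Of the other epithelial keratins 1 rose (Krt5), 2 fell (Krt20 and Krt14) and 3 were not called in Diff. hepatocytes against Hepatoblasts. The shares over all tested genes were 14.9% higher and 14% lower. Krt20 fell from 138 to 64.9 CPM (log2 fold change -1.09, SE 0.247, adjusted p = 0.00196) with overlapping groups, and was not called without Hepatoblasts replicate 4 (-0.98) or Diff. hepatocytes replicate 2 (-0.93). Krt5 and Krt14 lay below 1 CPM in every group mean; Krt5 was no longer tested without Diff. hepatocytes replicate 1, and Krt14 lost its call in 6 of the 12 fits with 1 library left out (Hepatoblasts replicates 1, 3 and 4, Diff. hepatocytes replicates 1, 2 and 4), with adjusted p up to 0.0261 and log2 fold changes of -1.30 to -1.66, and also with the replicate block (-1.60). The hepatocyte pair Krt8 and Krt18 was abundant in every group, with means of 281, 334 and 223 CPM for Krt8 and 292, 470 and 216 CPM for Krt18 in Hepatoblasts, Diff. and Mature hepatocytes. Neither was called in Diff. hepatocytes against Hepatoblasts; their log2 fold changes were 0.25 (SE 0.202) and 0.69 (SE 0.144), beside 4.74 to 4.82 for Krt7, Krt19 and Krt23. Krt8 shares 23.46% of its 75-base stretches with other genes, among them the pseudogene Krt8-ps, and the effect of this on its level was not tested.

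**Figure D5:**
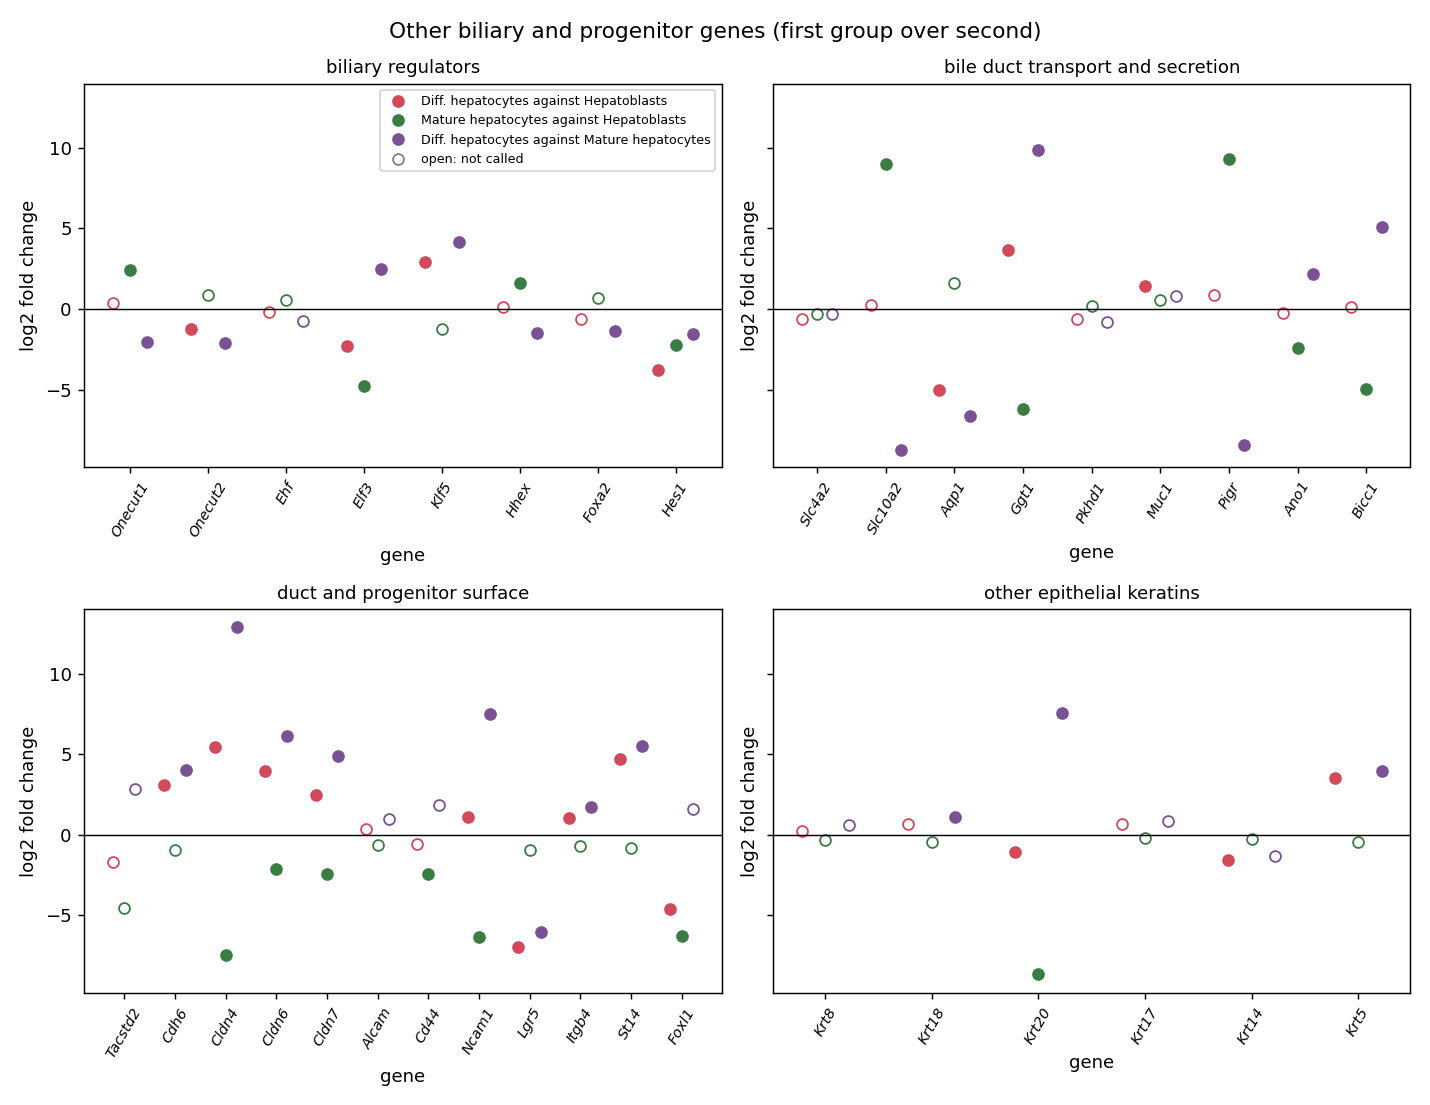
Log2 fold change of the tested genes of the 4 other biliary and progenitor lists, 1 regulator left out, in the 3 comparisons, filled where called and open where not. Among the surface genes 7 of 12 are called higher in Diff. hepatocytes than in Hepatoblasts, against 1 of 9 regulators; Cldn4 and Slc10a2 have a group at 3 counts or fewer in every library, so their plotted values there depend on the fit.

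Against Hepatoblasts, Mature hepatocytes had 4 of the 36 genes higher, 12 lower and 20 not called (median -0.67, all tested genes -0.15), where 44.8% of all tested genes were called, 20.1% higher and 24.7% lower. With library totals 3 were higher and 20 lower, and with totals without the 50 most abundant genes 3 and 18. Of the 17779 tested genes 9927 and 9301 were called under these scalings, and only 20.2% and 24.5% of the called genes were higher. Onecut1, which acts in both liver lineages, rose from 14.2 to 75.8 CPM (log2 fold change 2.41, SE 0.316, adjusted p = 1.24e-05) and Hhex from 44.02 to 134 CPM (1.60, SE 0.323, adjusted p = 0.000556), the latter not called with library totals (0.77). Pigr, the receptor that carries IgA into bile, rose from 3.67 to 2292 CPM (9.29, SE 0.296, adjusted p = 1.72e-11), and Slc10a2, a bile acid uptake carrier, was at least 321-fold higher at 30.8 CPM. Those that fell included Elf3 (-4.80, SE 0.309, adjusted p = 1.09e-08), Hes1 (-2.25, SE 0.38, adjusted p = 0.000129), Ggt1 (-6.20, SE 0.267, adjusted p = 2.68e-10), Bicc1 (-4.97, SE 0.258, adjusted p = 1.43e-09) and Ano1 (-2.43, SE 0.494, adjusted p = 0.000595). Aqp1 was not called (1.62, SE 0.576), but was without Hepatoblasts replicate 1 (2.96). Of the surface genes none rose and 6 fell; 1 of these, Cldn6 (-2.15), kept its call in only 4 of the 12 fits with 1 library left out. With library totals 10 of the surface genes fell, the further ones being Alcam (-1.48), Lgr5 (-1.75), Itgb4 (-1.55) and St14 (-1.66). Among the 6, Ncam1 was at least 57.4-fold lower, Cldn7 fell by 2.45 (SE 0.322, adjusted p = 1.28e-05) and Cd44 by 2.43 (SE 0.595, adjusted p = 0.00236) on the log2 scale, and of the other keratins Krt20 fell by 8.61 (SE 0.408, adjusted p = 6.45e-10). Cd44, a hyaluronan receptor, was at 66 CPM in Hepatoblasts replicate 1 and at 10.6 to 15.3 CPM in the other 3, and without that library it fell by 1.39 (adjusted p = 0.00325), which is 2.05 times smaller on the linear scale.

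In Diff. against Mature hepatocytes 15 of the 36 genes were higher, 9 lower and 12 not called (median 1.04, all tested genes 0.09), where 20.2% of all tested genes were called higher and 15.6% lower. With library totals 19 were higher and 6 lower, where 7276 of the 17779 tested genes were called, 75.6% of them higher. The surface genes had 7 higher and 1 lower. Cldn4 had 0 counts in every adult library and was at least 216-fold higher in culture, Ncam1 was at least 124-fold higher, and Cldn6 was higher by 6.11 on the log2 scale (SE 0.571, adjusted p = 7.06e-07), and Lgr5 was lower (-6.05, SE 0.472, adjusted p = 1.28e-07). The regulators had 2 higher, namely Klf5 (4.17, SE 0.408, adjusted p = 1.1e-06) and Elf3 (2.48, SE 0.31, adjusted p = 1.11e-05), and 5 lower, led by Onecut2 (-2.14, SE 0.168, adjusted p = 1.37e-07), Onecut1 (-2.05, SE 0.313, adjusted p = 6.8e-05) and Hes1 (-1.52, SE 0.389, adjusted p = 0.00376). Hes1 lost its call without Diff. hepatocytes replicate 3 (-1.48) or 4 (-1.49), without Mature hepatocytes replicate 1 (-1.24) or 3 (-1.26) and with library totals (-0.99). With library totals Hhex (-0.95) and Foxa2 (-0.81) lost their calls as well, which left 2 regulators lower. The transport genes split evenly. Ggt1 (9.87, SE 0.269, adjusted p = 7.93e-12), Bicc1 (5.12, SE 0.259, adjusted p = 2.28e-09) and Ano1 (2.16, SE 0.496, adjusted p = 0.00179) were higher, and Pigr (-8.42, SE 0.285, adjusted p = 5.57e-11), Aqp1 (-6.65, SE 0.789, adjusted p = 6.99e-06) and Slc10a2, at least 228-fold, were lower. Ano1 was at 7.78 CPM in Diff. hepatocytes replicate 1 and at 1.87 to 2.67 CPM in the other 3 libraries, and without the former its log2 difference was 1.48 (adjusted p = 0.00374), which is 1.6 times smaller on the linear scale. The keratins had 3 higher and none lower, with Krt20 at 7.53 (SE 0.405, adjusted p = 4.07e-09) and Krt18 at 1.12 (SE 0.145, adjusted p = 1.58e-05).

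The genes whose pattern over the 12 libraries was most like that of each member were found by the root mean square difference of log2 CPM, each gene centred on its own mean, among 13144 genes of at least 1 CPM on average. The distances describe these libraries, which fall into 3 groups, and carry no test. Krt7 was nearest to Ccn2 (0.363) and Ahnak2 (0.409), and Ccn2 was at means of 1.48, 51.8 and 0.774 CPM in Hepatoblasts, Diff. and Mature hepatocytes. Krt19 was nearest to Msln (0.383), S100a6 (0.394) and Tnfrsf23 (0.49). Msln, a marker of mesothelial cells and one of the 6 in that list, was at 0.355, 7.38 and 0.521 CPM. Krt23 was nearest to Sult2a2 (0.478), Ffar4 (0.56) and Fibin (0.575), so the 3 keratins shared none of their 3 nearest genes.

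Epcam was nearest to Thsd7a (0.323), Ak1 (0.35) and Fam129a (0.36). Sox4 was nearest to Flna (0.272), Cavin1 (0.287) and Cnn2 (0.29), and Flna, an actin crosslinker, was at 154, 392 and 18.7 CPM in the 3 groups. Sox9 was nearest to Atxn1 (0.252), Tfpi2 (0.273) and Pxmp4 (0.28), all with adult levels above the other groups. Spp1 was nearest to Tcim (0.449), Tlr3 (0.505) and Irgm1 (0.511), Cd24a to Cdr2 (0.437), Prkar2b (0.448) and Ypel4 (0.536), and Prom1 to Kcnk16 (0.506), Pnliprp2 (0.525) and Mcoln2 (0.553). Among the members themselves Epcam and Sox4 were the closest pair (0.706), then Krt19 and Krt23 (0.796), Krt7 and Epcam (0.809) and Sox9 and Spp1 (0.938).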

How the data were processed

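RNA was measured in 12 libraries, 4 biological replicates in each of 3 groups taken from the labels. The authors sequenced poly(A) RNA as 75-base single reads in a strand-specific workflow, checked the reads with FastQC 0.11.2, and used STAR 2.5.2b for mapping to GRCm38 and for counting on Ensembl release 92 genes. Picard 2.10.2 and DESeq2 1.22.2 are also named in the submitters' processing notes. What was deposited is a matrix of raw, whole-number counts with no normalization. The strand setting of the counting is not given in the sources used here.

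The 17779 genes that exceeded 10 counts in at least 1 library were fitted with edgeR 4.0.16 (R 4.3.3, TMM scaling, quasi-likelihood test, group as the only term, all 12 libraries) and p-values were adjusted by Benjamini-Hochberg over all of them. The threshold was an adjusted p below 0.01 and an absolute log2 fold change above 1. The SE is the absolute log2 fold change over the square root of F. CPM used TMM-scaled totals, FPKM the union exon length of GENCODE release M21, which held 53620 of the 53715 identifiers, and log2 CPM for the likeness measure a prior count of 2. A fold against a group of at most 3 counts in every library is a lower bound against 3 counts per library. Libraries of a group differed by a chi-square per gene of 6.02 to 90.7, so none were merged. DESeq2 1.42.0, limma 3.58.1, other scalings and filters, a replicate block and left-out libraries served as alternatives; leaving out replicate 1 of all groups was chosen after the data were seen. The code was tested on simulated counts.

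The members and the gene lists were chosen with earlier results of these data known. All 9 members are named with every library's value. From each of the 4 other biliary lists, up to 3 called genes per direction and comparison were named. These had the largest absolute log2 fold change and a mean of at least 1 CPM. Muc1, Cftr, Sctr, Krt5, Krt8, Krt14, Itgb4, Alcam, Foxa2 and Krt18 against Hepatoblasts were named after their values were seen. The same holds for Upk1b, Lrrn4, Upk3b, Wt1, Gpm6a and H19 and for the group means of Dlk1, Afp, Msln and the 6 hepatocyte genes. For likeness the 3 nearest genes were named. A gene of the regulators, which was tested and counted, and a gene near Krt7 are not reported here.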

Additional observations from a re-analysis of the deposited data

Results flagged for a closer look

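In groups of 4 libraries, a library was singled out when its gap to the nearest other library exceeded Dixon's 95% limit as a share of the group's range, which chance alone gives in about 1 group in 20. Among the members this happened in 4 of 27 groups, beside 1.35 by chance if the values were independent and normally distributed. CPM without logs were used and the genes share the same libraries, so no excess over chance is read from this. Krt7 in Diff. hepatocytes replicate 1 stood at 90.2 CPM, Krt7 in Mature hepatocytes replicate 1 at 1.3 CPM, Krt19 in Mature hepatocytes replicate 1 at 9.33 CPM and Cd24a in Hepatoblasts replicate 1 at 246 CPM, each above the other 3 libraries of its group.

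Among the marker and biliary lists it happened in 6 of 39 groups, beside 1.95 by chance under the same assumptions, and no excess is read from this either. Of these, 5 were in Hepatoblasts replicate 1. Its summed level was 345 CPM for the macrophage list, 1230 CPM for the erythroid list and 330 CPM for the granulocyte and megakaryocyte list, all above the rest of the group, and 213 CPM for the biliary regulators and 510 CPM for the other epithelial keratins, both below it. The sixth was the cell cycle list in Diff. hepatocytes replicate 1, at 109 CPM. The cause of these values was not tested.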

How the results depend on the processing

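Among the alternatives, a fold change threshold of 1 inside the test (glmTreat) moved the number of genes called furthest, to 2966 in Diff. hepatocytes against Hepatoblasts and 4221 in Diff. against Mature hepatocytes; the stricter test itself calls fewer. Under it Sox4 in the first comparison, Prom1 in the second and Spp1 in Mature hepatocytes against Hepatoblasts were no longer called. With 1 library or replicate 1 of all groups left out, 4704 to 5170, 6027 to 6532 and 7621 to 7967 genes were called in Diff. against Hepatoblasts, Diff. against Mature and Mature against Hepatoblasts, with 6 to 7, 7 to 8 and 5 to 6 members and 14 to 19, 23 to 25 and 15 to 18 other biliary genes. The value of 14 came only from the fit without replicate 1 of all groups. Without replicate 1 of all groups, the other biliary genes called higher in Diff. hepatocytes against Hepatoblasts went from 11 to 7 (Muc1, Ncam1, Itgb4 and Krt5 lost, Krt5 as it was no longer tested). With totals without the 50 most abundant genes, 46%, 76.5% and 24.5% of the called genes were higher in the same order of comparisons.

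Of the members' log2 fold changes, 15 of the alternative values reversed, 12 gained and 5 lost a call, and 535 kept direction and side of the threshold. Sox9 in Diff. hepatocytes against Hepatoblasts was -0.3 with library totals, -0.0928 with totals without the 50 most abundant genes, -0.0142 with a filter of 1 count, -0.0220 with the replicate block, -0.13 without Hepatoblasts replicate 1, -0.05 without Hepatoblasts replicate 4, -0.06 without Diff. hepatocytes replicate 1, -0.0022, -0.0018, -0.0019 and -0.0023 without each Mature hepatocytes replicate and -0.202 without replicate 1 of all groups, with a highest value of 0.14 without Hepatoblasts replicate 3. Krt23 in Mature hepatocytes against Hepatoblasts was -0.38 with library totals, -0.199 with totals without the 50 most abundant genes and -0.0047 without replicate 1 of all groups, with a highest value of 0.80 without Hepatoblasts replicate 3. The causes were not tested.

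Deviations of same-numbered libraries from their group means correlated at 0.324, -0.0589, 0.246 and 0.184 for numbers 1 to 4 of Hepatoblasts and Diff. hepatocytes, and at -0.0813 to 0.0923 in pairs with Mature hepatocytes. In no comparison did every pair exceed 0.1, and the labels name no shared source, so the numbers were not taken as pairs, although 3 of the 4 exceeded it in the first. With the replicate number as a block, 5220, 6359 and 7988 genes were called in the same order of comparisons, and in the first, 5 of 8 libraries correlated best with their own number. Under the block Muc1 and Krt14 lost their calls in that comparison, and Krt7 was called lower in Mature hepatocytes than in Hepatoblasts.

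At this depth 3 counts in a library are 0.0957 to 0.19 CPM on average, which limits Epcam and Prom1 in Mature hepatocytes and the near-zero Cftr, Sctr and Cldn4.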
